A study of Mus musculus with 6 samples.

Results

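The baseline cleavage landscape described here comes from 2 of the 6 libraries of the series, the ones titled as wild type and labelled as untreated. Both are from V6.5 cells, a mouse embryonic stem cell line of C57BL/6-129 background, grown under standard conditions with the treatment given as "None". The other libraries of the 3-group study received antisense morpholino oligonucleotides and are not compared here. Each untreated library lists stranded positions taken as ends of polyadenylated RNA, with the number of reads at each. Positions outside chromosome M were taken, and neighbours on a strand were merged into a cluster wherever 24 nt or less separated them. This gave 381686 clusters from 948302 distinct positions. Each cluster is treated as a candidate place of cleavage and polyadenylation. Whether each is a true site was not tested, and 67.1% of the clusters were a single position. No annotation of mm9, the build of the files, was used, so clusters are named by position, and the stem cell identity was not checked against marker genes.

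The libraries, called replicate 1 and replicate 2, held 38331615 and 60261221 reads at 739367 and 497402 positions. Replicate 2 thus had more reads at fewer positions, with a median of 7 reads per position against 2 in replicate 1. Positions with 5 to 10 reads made up 20.9% of the list in replicate 2 and 12.2% in replicate 1, and positions with a single read 22.0% and 37.4%. The read names place each library in a single run and lane, with none shared, so culture and run cannot be told apart. The series calls them biological replicates, and no molecular identifiers are described, so reads cannot be taken as independent molecules.

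Most mammalian messenger RNAs end where a multi-protein machine cuts the nascent transcript and adds a poly(A) tail. The machine recognises a short signal in the RNA, written AAUAAA in its canonical form and aataaa in DNA letters, through the CPSF complex (its subunits CPSF30 and WDR33 bind the signal). A GU-rich element past the cut is bound by CstF, the endonuclease CPSF73 makes the cut, and poly(A) polymerase extends the new end. The cut falls a short way downstream of the signal and is rarely fixed to a single base, so a site appears in 3′ end sequencing as a small cluster of positions.

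Every deposited position carried a hexamer found 6 to 40 nt away, the distance itself, and an integer of unstated meaning between 0 and 10. The 36 kinds of hexamer were the canonical one, 15 of the 18 possible single-base variants and 20 with more changes. The 8 hexamers on which the results below turn are shown 5′ to 3′ in DNA letters. Capitals mark the bases that differ from the canonical form, and the substitutions are counted from 1 at its 5′ end.
canonical: aataaa
A2T: aTtaaa
A2G: aGtaaa
A1T: Tataaa
A5T: aataTa
A5C: aataCa
A1T with T3A: TaAaaa
T3A: aaAaaa

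The canonical hexamer accompanied 69.9% ± 0.156 of reads (SD, n = 2), with 69.8% in replicate 1 and 70.1% in replicate 2. Every deposited position carried a listed hexamer, so ends without any of these kinds do not enter the shares. The A2T variant followed at 17.8% in each library. A2G had 3.05% and 2.73%, A1T 2.07% and 2.39%, A5T 1.32% and 1.30%, and A5C 0.992% and 0.822% (replicates 1 and 2). Together these 6 held 95.1% of reads in each library, so the remaining 30 kinds shared the small rest. By the base that differed, and leaving out A2T and T3A, single-base variants at base 1 carried 3.62% and 3.81% of reads, at base 2 3.47% and 3.04%, at base 3 0.506% and 0.587%, and at base 5 2.51% and 2.31%. Those at base 4 had 0.459% and 0.401% and at base 6 0.164% and 0.136%. These are sums over the kinds listed, 3 at bases 1 and 5, 2 each at bases 2, 3 and 4, and 1 at base 6, so they are not set against each other per kind. As listed, T3C had the fewest reads of the single-base variants, with 0.0766% and 0.0662%.

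How the hexamer was chosen could be read from neighbouring positions. Of 386452 pairs of adjacent positions, 98.6% kept the same hexamer place, the distance growing by 1 nt with each step downstream. Of the other 5416 pairs, the old hexamer had reached 40 nt in 2780 and a new one entered at 6 nt in 2798, with 162 counted under both, and no pair changed in any other way. AATAAA was replaced before 40 nt by a nearer copy of itself in 184 pairs and by no other kind. It took the place of another kind in 106 pairs, 44 of them ATTAAA. The deposited hexamer thus behaved as the highest-ranked kind in a window of 6 to 40 nt, with the nearest copy taken, although no source used here states the rule itself. ATAAAA and ATTAAT, at 1079 and 89 positions, were found at 40 nt and at no other distance. Shares and distances therefore describe the listed hexamer, which need not be the one the machinery used. Listing AATAAA over another kind in the same window can only raise its share.

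Cleavage fell at a narrow range of distances from the common signals. The median distance over all reads was 21 nt in both libraries, with quartiles of 19 and 24 nt, and 92.2% and 92.5% of reads lay 15 to 30 nt from their hexamer. The quartiles were also 19 and 24 nt for the canonical form, A2T and A2G. The A1T variant had the same quartiles with a median of 22 nt. It had 2.44% and 3.39% of its reads at 6 to 9 nt, against 0.304% and 0.387% for the canonical form.

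**Figure D1:**
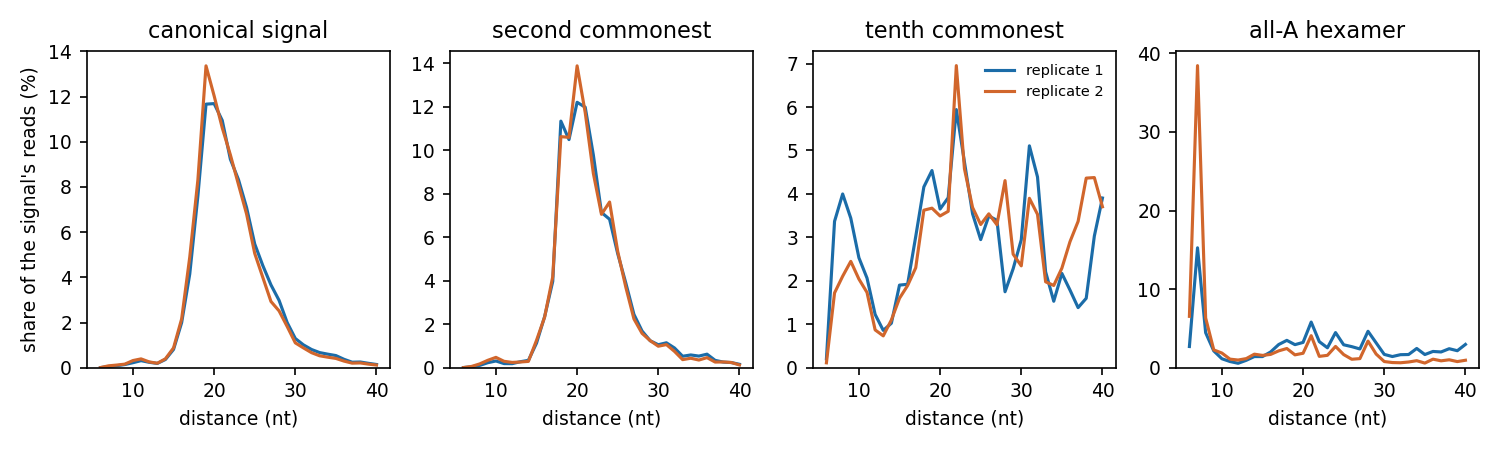
Share of each hexamer's reads (y axis, %) by the distance between hexamer and cleavage position (x axis, nt), with 1 line per untreated library; the panels show the canonical form, A2T (second commonest), the form with A1T and T3A (rank 10) and the all-A form T3A. The first panels peak at 19 to 20 nt in both libraries, while the all-A form peaks at 7 nt, higher in replicate 2, and the remaining form spreads widely about its most frequent distance of 22 nt.

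The all-A hexamer departed from this pattern. At 7 nt lay 15.3% of its reads in replicate 1 and 38.4% in replicate 2. Its share of positions was 2.26% and 6.53%, and its share of reads 0.178% and 0.364%. A run of A longer than the hexamer holds many copies, and the nearest was listed: 1620 of the 2636 changes before 40 nt went from the all-A form to another copy of itself. The form with A1T and T3A also had a larger share in replicate 2, at 5.06% of positions against 2.42%, and its reads spread widely, with quartiles of 17 and 31 nt in replicate 1 and 19 and 32 nt in replicate 2. Both A-rich forms were thus more frequent in replicate 2, while the shares of the canonical form in positions were 48.0% in each library.

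Levels were very unequal. The 1027 most abundant clusters held 50% of the reads, 8922 held 90% and 68413 held 99%. The top 10 took 6.31% of reads in replicate 1 and 5.35% in replicate 2, and the top 1000 took 50.3% and 48.7%. At the other end, 294743 clusters (77.2%) had a mean under 0.1 CPM (counts per 1000000 reads, scaled to the library's total outside chromosome M), and these took 0.902% and 0.643% of reads. The median cluster stood at 0.0261 CPM, which is a single read in replicate 1. Clusters averaging 10 CPM or more over the libraries, called strong here, numbered 10459, or 2.74% of all, with 5303 on the plus and 5156 on the minus strand. Just above the limit, the cluster at chr8:32269624-32269637 (minus strand) had 420 and 546 reads and 10.0088 CPM. The nearest cluster below the limit, at chr5:147766487-147766510 (minus strand), had 556 and 331 reads and 9.99888 CPM.

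**Figure D2:**
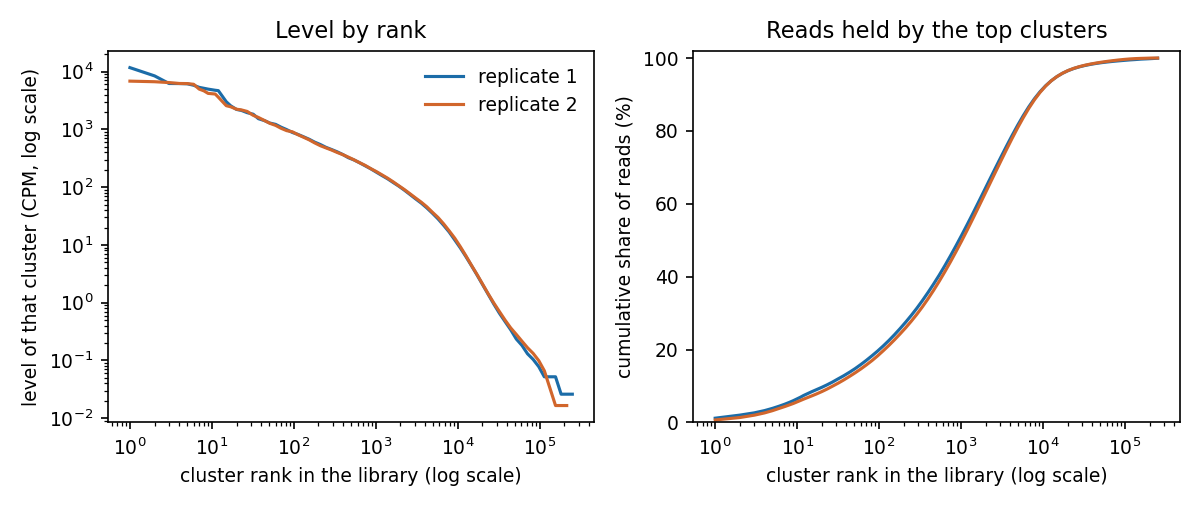
Level of each cluster in CPM (left, both axes log scale) and cumulative share of reads in % (right) against the rank of the cluster in its own library, 1 line per untreated library. The level curves part at the top (11682 CPM in replicate 1 and 6825 in replicate 2 at rank 1). They part again among the least abundant clusters, which have a few reads. About 1000 clusters carry 50% of the reads.

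The most abundant cluster lay at chr11:68718003-68718057 on the plus strand, with 447781 reads in replicate 1 and 401540 in replicate 2, or 11682 and 6663 CPM. It stood higher in replicate 1 (ratio of replicate 2 to 1 0.570, 95% exact counting interval 0.568 to 0.573). This interval, like the others given here, treats reads as independent and leaves out variation between libraries. At 100 CPM or more the log2 ratio had a spread (scaled median absolute deviation) of 0.72, where counting gives 0.02. Its top position, 18 nt from an A2T hexamer, held 71.4% of the reads. The second, chr4:3761601-3761629 (minus), had 8410 and 4972 CPM and a canonical hexamer 20 nt from its top position. Replicate 1 was also the higher at this cluster.

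The clusters ranked 3 and 4 had nearly equal levels in the libraries. At chr15:76736734-76736757 (plus) they were 6211 and 6218 CPM, a ratio of 1.001 (0.996 to 1.006). At chr9:61761070-61761110 (minus) they were 6194 and 6016 CPM. The next 3 stood higher in replicate 2: chr8:125629129-125629166 (plus) with 4964 and 6825 CPM, chr11:48619575-48619610 (plus) with 4743 and 6444, and chr14:25315076-25315089 (plus) with 4750 and 6191. The last is also the narrowest of the top 10, at 14 nt.

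The remaining 3 of the top 10 stood higher in replicate 1. The levels at chr7:54110986-54111025 (plus) were 5327 and 3596 CPM, at chr1:88247051-88247084 (minus) 4672 and 4189 CPM, and at chr4:116826427-116826443 (minus) 6139 and 2340 CPM. The last of these differed the most among the top 10, with a ratio of 0.381 (0.379 to 0.384). The chr1 cluster is the only one of the 10 with an A2G hexamer at its top position, and its reads were the most spread, with 29.8% at that position. Of the 10, 8 had the canonical form there.

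The clusters that led for the less used hexamers stood far lower. For A1T it was chr4:118809840-118809945 (plus), with 689.6 and 520.6 CPM, spread over 106 nt with 34.3% at the top position. For A5T it was chr6:67234281-67234315 (plus), with 1564 and 734.1 CPM and its top position 30 nt from the hexamer. For A5C it was chr8:127363236-127363274 (minus), with 293.0 and 279.4 CPM.

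The listed hexamer moved with level. The canonical form was at the top position of 33.4% of clusters under 0.1 CPM, 43.4% at 0.1 to 1, 52.7% at 1 to 10, 66.5% at 10 to 100 and 71.7% at 100 CPM or more. The A2T share went from 12.6% to 17.7% over the same classes and was already 17.8% at 1 to 10 CPM. The all-A form went the other way, from 8.51% to 0%, with 31 of 8439 clusters at 10 to 100 CPM and none of 2020 above. Tops at 15 to 30 nt from the hexamer rose in share from 64.1% to 94.9%. A deposited 0-to-10 value of 8 or more was found at 26.0% of the lowest class and 6.63% of the highest. Put the other way, 5.03% of clusters with the canonical form were strong, 3.61% with A2T, 2.30% with A2G, 1.86% with A1T, 0.223% with A1T and T3A, and 0.110% with the all-A form. Clusters are not replicates, so these shares are descriptions and no test was run on them.

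The strong clusters of the common hexamers had like shapes. Median widths were 23 nt for the canonical form, A2T and A2G, 26 nt for A1T and 24 nt for A5T, and the median shares at the top position lay between 48.4% and 50.7%. Their median levels were 35.9 CPM for the canonical form, 33.5 for A2T, 30.6 for A2G, 27.3 for A1T and 28.5 for A5T. Among strong clusters the all-A form had the lower median level of 13.4 CPM, over 31 clusters.

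Cleavage within a strong cluster was concentrated on few bases. Strong clusters had a median width of 23 nt (quartiles 17 and 32 nt) and a median of 17 listed positions, but 4 positions with at least 5% of the reads each. The middle 90% of a cluster's reads fell in a median of 8 nt. The top position held a median of 49.8% of reads (quartiles 37.7% and 64.0%). It held over 90% in 132 clusters, or 1.26%. Reads were not symmetric about it: 21.1% lay upstream and 30.8% downstream in replicate 1, and 18.6% and 23.1% in replicate 2. Within 5 nt of the top position lay 89.0% and 89.2% of reads. Width grew with level, from a median of 1 nt under 0.1 CPM, where 83.4% of clusters were a single position, to 28 nt at 100 CPM or more. More reads list more of the rare positions, so width and depth are not independent.

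**Figure D3:**
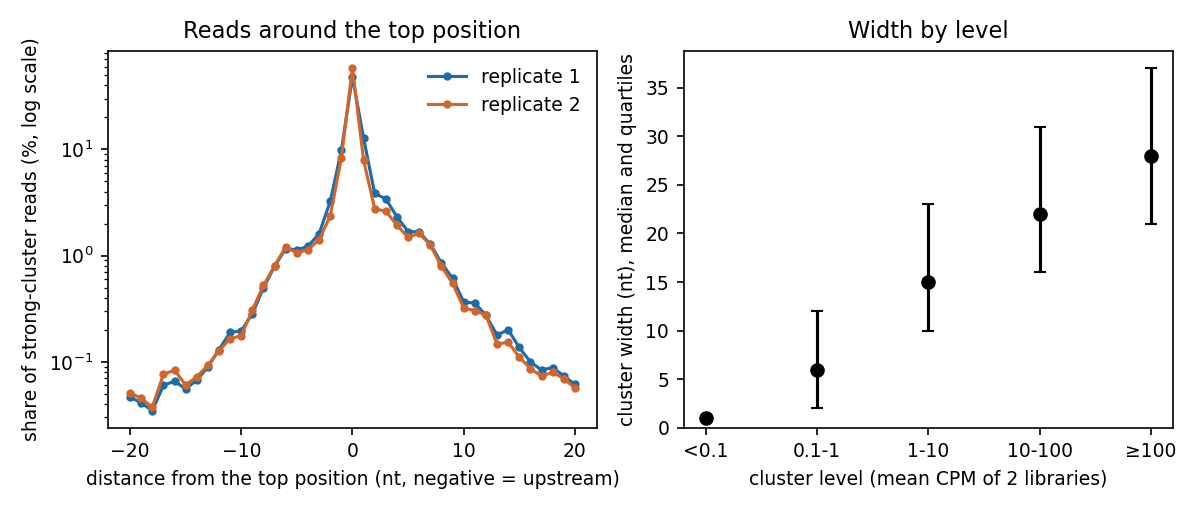
Left: share of the reads of strong clusters (y axis, %, log scale) by distance from the top position of their cluster (x axis, nt), 1 line per untreated library. Right: width of clusters (nt; points are medians, bars the quartiles) by level. Reads fall off within a few nt on both sides, and the median width goes from 1 to 28 nt from the lowest to the highest level.

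Most strong clusters were listed with a single hexamer place. A hexamer's own position follows from the cleavage position and the distance, and 6742 strong clusters (64.5%) had the same hexamer place at all of their positions. The other 3717 had 2 or more places, yet 91.7% of all strong clusters had over 95% of their reads on 1 place. In 220 clusters (2.10%) the main place had under 70%. A hexamer was listed only 6 to 40 nt from a position, so 1 place can cover a narrow cluster but not a very wide one. The widest clusters of at least 100 CPM therefore had several places by construction, and the share on the main place is given for each. At chr13:41108218-41108419 (plus), 202 nt wide with 194.4 and 210.9 CPM, 7 hexamer places were listed and the main one had 93.3% of reads. The clusters at chr5:8396900-8397028 (minus) and chr13:58492487-58492608 (minus) each had 5 places, with 78.8% and 81.1% on the main one. At chr9:64026208-64026341 (plus) and chr9:72597578-72597706 (plus), which were 134 and 129 nt wide, the main place had 98.8% and 98.1%.

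At the other extreme, some abundant clusters ended at 1 base. Among those of at least 100 CPM, chr19:5590495-5590499 (minus) had 99.9% of reads at 1 position, only 11 nt from a canonical hexamer, with 188.3 and 56.0 CPM. The same share was 99.9% at chr4:82841096-82841101 (plus), with 651.8 and 158.3 CPM, and at chr16:15609838-15609841 (plus), with 109.9 and 147.2 CPM. It was 99.8% at chr7:87382459-87382462 (minus), with 488.2 and 192.2 CPM. At chr16:81909191-81909195 (minus), with 163.6 and 145.1 CPM, it was 99.5%. Replicate 1 stood higher at 4 of these 5. The narrowness itself was the same in the libraries, with at least 99.2% at the top position in each.

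Strong clusters were mostly far apart. The median gap to the next strong cluster on the same strand was 96076 nt (quartiles 14158 and 393705 nt), and 49.4% of gaps were over 100 kb. Yet 1410 of 10417 gaps (13.5%) were under 1000 nt and 2141 (20.6%) under 5000 nt. Among all clusters the median gap was 5449 nt, and among those with reads in both libraries 8566 nt. By chromosome, strong clusters were most frequent on 11 (1028, with 13.2% and 12.6% of reads), then 2 (828), 7 (706), 4 (663) and 8 (636). Chromosome X had 335 and chromosome Y 4, the latter with 7972 and 14397 reads in all.

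The 2141 neighbouring pairs under 5000 nt apart had a median gap of 539 nt; whether their members end the same gene was not examined without an annotation. The proximal member, upstream in the sense of transcription, was the stronger in 47.8% of pairs. The canonical hexamer was at the top of 54.5% of proximal and 63.8% of distal members, both below the 67.5% of all strong clusters. The proximal share of a pair's reads had a median of 48.7% in replicate 1 and 47.8% in replicate 2. It differed between the libraries by a median of 7.78 points, by over 20 points in 316 pairs (14.8%), and was higher in replicate 2 in 48.6% of pairs, so it did not lean to one library.

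Opposite-strand neighbours lay mostly downstream, the tail-to-tail arrangement of converging transcripts. Of 10459 strong clusters, 1624 (15.5%) had their nearest opposite-strand strong cluster within 5000 nt, 1416 of them downstream and 208 upstream, where the ends of such transcripts would overlap. Within 100 nt the sides were closer, with 103 downstream and 80 upstream. From 2000 to 5000 nt there were 565 downstream and 22 upstream. Pairs are counted from each member, so the members of a mutual pair both enter these counts.

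Weak clusters, under 10 CPM, gathered around strong ones on the same strand. At 25 to 100 nt there were 2.83 weak clusters per kb upstream of a strong cluster's top position and 1.71 downstream. Same-strand positions at most 24 nt from a strong cluster are joined to it. Part of this window could therefore hold no separate cluster, and how much on each side was not measured. At 500 to 1000 nt the densities were 1.04 and 0.958, and at 20000 to 50000 nt 0.164 and 0.133. On the opposite strand the density at 500 to 1000 nt was 0.159 upstream and 0.292 downstream, the side on which strong opposite-strand clusters lay. Nearest the top position, at 25 to 100 nt, the order was the other way, with 0.616 upstream and 0.296 downstream. At 500 to 1000 nt the opposite-strand levels downstream were 0.203 and 0.178 CPM per kb in replicates 1 and 2, and same-strand levels upstream were 0.787 and 0.780. Windows of neighbouring strong clusters overlap, so these densities are averages over clusters and not independent points.

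**Figure D4:**
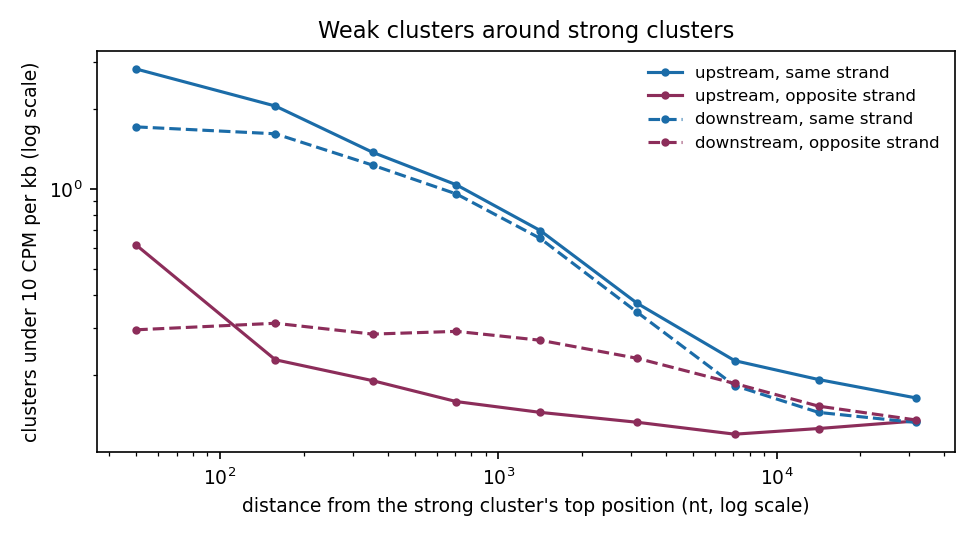
Number of clusters under 10 CPM per kb (y axis, log scale) by distance from the top position of a strong cluster (x axis, nt, log scale; points at the geometric middle of each window), for the same and the opposite strand, upstream (solid) and downstream (dashed), with the libraries pooled. Same-strand density falls from 2.83 to 0.164 per kb upstream; opposite-strand density is higher downstream than upstream from 100 nt to 20000 nt.

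The libraries agreed on where strong clusters lay and less on their levels. Of the 10459 strong clusters, 10449 had reads in both libraries, and 9152 clusters reached 10 CPM in each. The top position was the same base in 89.8% of the shared strong clusters and within 1 nt in 93.3%. Across strong clusters Pearson's r of log2(CPM + 1) was 0.86 and Spearman's rho 0.83 (n = 10459 clusters, which share 2 libraries and are not independent; both are descriptions). Lists of equal length shared 6 of the top 10, 69 of the top 100, 755 of the top 1000 and 8863 of the top 10000 clusters.

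In level, 2188 strong clusters (20.9%) differed at least 2-fold, 1199 higher in replicate 2 (11.5%) and 989 higher in replicate 1 (9.46%). A difference of at least 4-fold was found at 210 (2.01%). With 1 library on each side these are differences between libraries, with no replicate check. The spread of the log2 ratio (scaled median absolute deviation) was 0.72 at 100 CPM or more and 0.80 at 10 to 100 CPM, where counting error alone gives 0.02 and 0.06. The counting values treat reads as independent molecules, which was not tested. At 1 to 10 CPM the spread was 0.99 and counting gives 0.20.

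**Figure D5:**
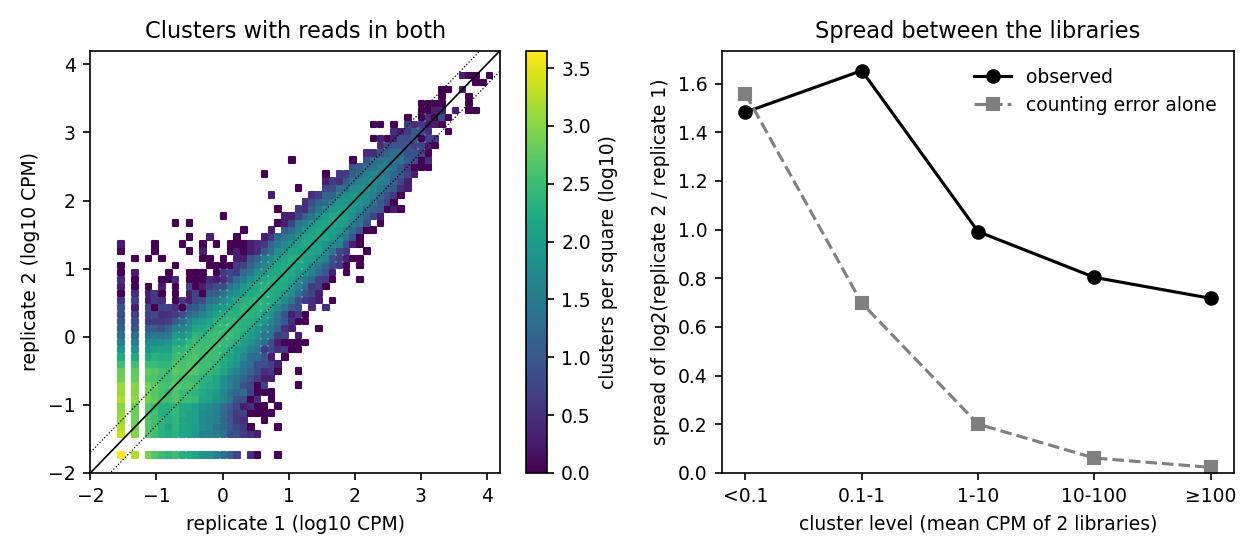
Left: levels of clusters with reads in both untreated libraries (log10 CPM; colour is the number of clusters per square on a log10 scale; solid line equal levels, dotted lines 2-fold); stripes at the low end are counts of a few reads. Right: spread of the log2 ratio of the libraries by level (black) beside the spread that counting error alone gives (grey). The observed spread stays at 0.72 at the highest level, where counting gives 0.02.

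Read concentration differed between the libraries in 1 direction. Each library's own top position held more of its reads in replicate 2 at 9417 of 10449 strong clusters (90.1%). The medians were 54.7% and 45.3% in replicates 2 and 1. The shared top position, that of the highest mean CPM, held 48.1% of strong-cluster reads in replicate 1 and 58.3% in replicate 2. The position 1 nt downstream of it held 12.7% and 7.91%. The role of run, depth or library preparation in this difference was not tested.

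Differences in level also varied with the hexamer. Against 11.5% and 9.46% of all strong clusters, canonical ones were at least 2-fold higher in replicate 2 at 11.8% and in replicate 1 at 9.44%. For A1T the shares were 15.3% and 3.83% (52 and 13 of 339 clusters). For A5C they ran the other way, with 3 higher in replicate 2 and 17 in replicate 1 of 142. So did A2G (20 and 36 of 297), A1C (7 and 19 of 116), A2C (4 and 13 of 46) and A4G (5 and 7 of 52). Replicate 2 was more often the higher for A2T (206 and 173 of 1848), A5T (15 and 8 of 140), T3G (10 and 2 of 71) and T3A (6 and 1 of 31). A1G had 7 each way of 86. For the form with A1T and T3A, 21 of 49 clusters were higher in replicate 2 and none in replicate 1.

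Some clusters were present in replicate 2 and had no read in replicate 1. There were 10 such strong clusters and none of the reverse kind. The form with A1T and T3A was at the top position of 7 of the 10, and at 9 of them the top position lay 30 nt or more from its hexamer. At chr13:62474480-62474499 (minus) replicate 2 had 10148 reads (168.4 CPM) and replicate 1 none. With 3 reads (0.0783 CPM) taken as the most that a count of 0 allows, replicate 2 was 2152-fold higher. The exact interval of this ratio had a lower limit of 1750. Replicate 2 likewise had 3597 reads at chr17:15077067-15077101 (minus), 2744 at chr4:114636531-114636544 (minus) and 2742 at chr4:59210895-59210903 (plus). With the same allowance these 3 were 763-fold, 582-fold and 581-fold higher, and their exact intervals had lower limits of 620, 473 and 472. A further cluster, chr11:69480792-69480808 (minus), had 8 reads against 2841, a ratio of 225.9 (114.5 to 523.7).

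The largest excesses of replicate 1 were smaller and fell at very narrow clusters. At chr16:49268864-49268866 (plus) the levels were 121.3 CPM in replicate 1 and 6.32 in replicate 2, 19.2-fold higher, with 99.9% of reads at 1 position. At chr2:138414620-138414620 (minus), a single position, there were 1711 and 205 reads, 13.1-fold higher after scaling. The levels at chr2:76889896-76889902 (minus) were 121.2 and 11.1 CPM and at chr10:79756860-79756865 (plus) 82.8 and 9.43 CPM. At chr17:13136625-13136634 (plus) they were 143.4 and 18.4 CPM. These 5 clusters were 1 to 10 nt wide, against a median of 23 nt for strong clusters. The 5 named above for replicate 2 were 20, 35, 14, 9 and 17 nt wide. Over all strong clusters differing at least 2-fold, the median width was 19 nt where replicate 1 was higher and 25 nt where replicate 2 was.

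Whether a cluster was seen in both libraries moved with its level, with 9.59% in both under 0.1 CPM, 80.6% at 0.1 to 1 CPM and 98.9% at 1 to 10 CPM. In all, reads in both libraries were found at 103435 clusters (27.1%), which held 99% of all reads in each library, while 166888 were seen in replicate 1 alone and 111363 in replicate 2 alone, with a median of 1 read each. Of these, 85.2% and 89.0% were single positions. Clusters of replicate 2 alone had the all-A hexamer at 14.5% and the form with A1T and T3A at 9.78%, against 4.67% and 3.95% for replicate 1 alone and 4.06% and 4.31% for shared clusters. The canonical form was at 31.9%, 33.3% and 47.6%. At this depth the absence of a cluster with 1 read from the other library is not evidence that it was not used there. A count of 0 allows up to 3 reads, or 0.0783 CPM in replicate 1 and 0.0498 CPM in replicate 2, and this covers counting error only.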

How the data were processed

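Untreated V6.5 cells gave poly(A) RNA, which RNase T1 cut into fragments; per the labels' protocols these became cDNA that was gel-sized, circularised and PCR-amplified before sequencing. The submitters' processing notes name cutadapt, Bowtie and the build mm9; versions and any filter on positions were not given in the sources used here. The authors deposited whole-number read counts per position for each library, not normalized, with a hexamer, a distance in nt and a score from 0 to 10. The deposited score has no stated meaning.

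Here positions outside chromosome M were joined (at most 24 nt apart) and reads summed. CPM uses library totals outside chromosome M, and levels are means of both libraries. The top position has the highest mean CPM. Ratios have 95% exact binomial intervals for counting error. The joining was checked on simulated positions. The 2-fold call was checked on simulated counts that varied by counting error alone, so that check gives no rate of calls from differences between libraries. At strong clusters the observed spread of the log2 ratio was 0.79, where counting gives 0.05. With 1 group of 2 libraries no test between groups was run.

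Named clusters were the 10 most abundant, the 5 highest and 5 lowest library ratios (mean of at least 20 CPM), the 5 widest and 5 most concentrated (at least 100 CPM) and the leader for each of the 6 commonest hexamers. Gene lists had been fixed but could not be used without an mm9 annotation. The members and lists were chosen with earlier results of these data known; the hexamer ranking, the strong clusters absent from replicate 1 and the A-rich forms were examined after values were seen. Tables were computed with pandas 2.3.3 and numpy 2.4.6 under Python 3.11.15, and intervals with scipy 1.17.1. Alternatives were other joining distances, strength limits, a minimum of 2 reads, chromosome M kept, thinning, and each library alone.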

Additional observations from a re-analysis of the deposited data

Results flagged for a closer look

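Positions on chromosome M were left out of every value above but carried reads in both untreated libraries: 237782 reads at 5244 positions in replicate 1 (0.617% of the library) and 212661 reads at 3070 positions in replicate 2 (0.352%). They are listed because they lie outside the analysed data and above the 3 reads that a count of 0 allows.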

How the results depend on the processing

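Across 13 results and 9 alternatives (99 pairs), 69 values kept within the spread of the libraries, the counting interval or 1.5 times the count, and 30 did not. The spread of the libraries comes from the same values as the settings with 1 library left out. A main value near their middle is thus kept by construction, which is no check. The median share at the top position (49.8%) was kept in this way against 44.9% and 55.1%. The cause of each move was not tested, except where fewer reads or libraries entered by construction. The number of clusters (381686) fell to 213899 with positions of at least 2 reads and lay between 215726 and 270726 with 1 library left out. The top 1000 held 49.4% to 51.0% of reads with 1 library left out. The median width of strong clusters was 26 nt with joining at 50 nt, and 18 to 22 nt with 1 library left out. The canonical share of reads was 69.6% with chromosome M kept. Its share of all clusters (36.8%) was 37.3% with joining at 50 nt, 40.3% with at least 2 reads, and 38.7% to 39.4% with 1 library left out. Its share of strong clusters (67.5%) was 67.3% and 67.9% with joining at 10 and 50 nt, 67.5% with at least 2 reads, 67.3% with chromosome M, 67.6% after thinning, 65.4% and 69.2% with limits of 5 and 20 CPM, and 67.2% to 67.3% with 1 library left out; the libraries differed so little here that any move passed their spread. The median gap of strong clusters (96076 nt) was 94575 and 100718 nt with joining at 10 and 50 nt, 63493 and 156324 nt with limits of 5 and 20 CPM, and 98478 to 99612 nt with 1 library left out. The share of strong clusters differing at least 2-fold (20.9%) was 22.2% and 19.4% with limits of 5 and 20 CPM. The share of clusters in both libraries (27.1%) was 26.4% with joining at 10 nt, 35.5% with at least 2 reads and 27.7% after thinning. No paired analysis was possible because the untreated libraries form a single group and no groups were compared. Depth limits the clusters of a few reads; how far the number of molecules sampled limits the strong ones was not tested.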
